A study of Homo sapiens with 6 samples.

Results

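The genes of the DNA replication machinery were compared between CD109-KO clones and parental samples, all labelled as A431 cells. A list of 50 genes was taken by gene symbol from the array annotation, and each of the 50 was read by exactly 1 probe set, out of 17687 named genes on the array. The list covers origin licensing, the replicative helicase, the polymerases, the sliding clamp and its loader, Okazaki fragment maturation, nucleotide supply and chromatin assembly behind the fork. A431 is a human squamous (epidermoid) carcinoma cell line, and CD109 is a GPI-anchored cell surface protein described as a TGF-β co-receptor. The series asked how gene expression differed between CD109-KO and parental A431 cells, with total RNA from each sample hybridized to 1 Affymetrix Clariom S human array, 6 arrays in all. The CD109-KO group held 3 lines, clones 26, 32 and 180, and the parental group held 3 samples of unedited A431 cells, numbered 5, 2 and 6. Per the study's methods, the clones were made by CRISPR/Cas9 with a plasmid that also carries GFP, sorted for GFP and then as single CD109-negative cells, so each line is 1 clone, and RNA was taken from monolayers in complete medium. The study describes its replicates as biological, but no label ties the numbers of the parental samples to separate cultures, and no unedited line carried through the same plasmid and single-cell sorting was among the samples used here. The p-values therefore measure only the spread between these samples, which may be technical.

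Before a cell copies its genome, the origin recognition complex, CDC6 and CDT1 load the MCM2-7 helicase onto origins, a step called licensing that geminin blocks once S phase has begun. The kinases CDC7-DBF4 and CDK then recruit CDC45 and the GINS complex, which turn the loaded ring into the active helicase. Polymerase alpha-primase lays down primers, polymerases delta and epsilon extend them on the clamp PCNA that the RFC complex loads, replication protein A covers the single strands, and FEN1 and LIG1 join the lagging strand fragments. Many of these genes are targets of E2F transcription factors, which RB family proteins restrain, and their mRNA levels are high in cycling cells and low in resting cells. Arrays of whole cultures average over all cells, so fewer cells in S phase and less RNA per cell cannot be told apart here. By cell counts and staining for a proliferation marker, the study reported more proliferation in CD109-KO than in parental A431 cells. How the RNA levels given here relate to that growth was not tested.

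RefSeq promoter windows, 250 bases before to 50 bases after an annotated start, were matched to 44 of the 50 genes, with 56 windows in all. There was no entry for MCM4, MCM5, POLD3, GINS4, RPA2 and RPA3. The windows of 5 genes are shown because the results turn on them: PCNA and MCM8 went from a high parental signal to background in every CD109-KO clone, CDC6 and CDT1 load the same helicase and lay on opposite sides of 0, and POLD1 was the only gene called higher. Capitals mark an E2F octamer, 1 of TTTCCCGC, TTTCGCGC, TTTGCCGC and TTTGGCGC on either strand, and the sequences run 5′ to 3′ on the gene's strand.
PCNA (GRCh38.p14 chr20:5126573-5126872, minus strand): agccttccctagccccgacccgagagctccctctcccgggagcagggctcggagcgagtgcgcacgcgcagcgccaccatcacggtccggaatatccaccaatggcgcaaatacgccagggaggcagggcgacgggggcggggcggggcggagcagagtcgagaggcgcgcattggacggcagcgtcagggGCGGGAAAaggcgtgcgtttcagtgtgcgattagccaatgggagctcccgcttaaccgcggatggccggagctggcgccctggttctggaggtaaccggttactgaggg
MCM8 (GRCh38.p14 chr20:5950402-5950701, plus strand): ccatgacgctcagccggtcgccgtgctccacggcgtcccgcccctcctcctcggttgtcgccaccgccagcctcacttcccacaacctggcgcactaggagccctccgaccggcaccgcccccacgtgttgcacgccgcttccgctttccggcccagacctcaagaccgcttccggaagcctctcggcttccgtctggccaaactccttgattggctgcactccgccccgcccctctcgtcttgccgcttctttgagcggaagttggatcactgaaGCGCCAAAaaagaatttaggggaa
CDC6 (GRCh38.p14 chr17:40287629-40287928, plus strand): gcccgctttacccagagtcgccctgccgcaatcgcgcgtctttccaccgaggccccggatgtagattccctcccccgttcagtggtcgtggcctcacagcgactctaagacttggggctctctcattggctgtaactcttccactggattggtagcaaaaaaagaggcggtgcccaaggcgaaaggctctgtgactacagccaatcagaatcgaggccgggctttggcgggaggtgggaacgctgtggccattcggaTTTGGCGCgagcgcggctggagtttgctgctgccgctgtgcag
CDT1 (GRCh38.p14 chr16:88803539-88803838, plus strand): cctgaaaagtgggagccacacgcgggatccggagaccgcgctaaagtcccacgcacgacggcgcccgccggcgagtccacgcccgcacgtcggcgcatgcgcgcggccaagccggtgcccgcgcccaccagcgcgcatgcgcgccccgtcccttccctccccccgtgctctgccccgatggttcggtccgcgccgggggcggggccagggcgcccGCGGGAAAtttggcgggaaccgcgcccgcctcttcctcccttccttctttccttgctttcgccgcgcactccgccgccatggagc
POLD1 (GRCh38.p14 chr19:50384073-50384372, plus strand): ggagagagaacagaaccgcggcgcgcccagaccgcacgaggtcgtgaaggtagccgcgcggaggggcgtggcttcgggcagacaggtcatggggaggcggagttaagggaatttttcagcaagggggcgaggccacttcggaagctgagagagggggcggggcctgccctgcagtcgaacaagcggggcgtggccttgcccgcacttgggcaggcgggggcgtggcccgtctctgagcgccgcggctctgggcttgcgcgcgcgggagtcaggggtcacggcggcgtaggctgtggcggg
RefSeq lists 2 starts each for PCNA and POLD1, of which 1 is shown.

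Among the 44 genes, 21 (47.7%) held an E2F octamer in a window, against 762 of 14250 array genes with a window (5.35%) and 3.31% of all 35116 windows. The octamer stood in 13 of the 28 genes with a window that were called lower in CD109-KO cells and in 8 of the other 16. The box CCAAT, on either strand, was in 26 of 44 (59.1%) against 42.34% of array genes, and the cell cycle homology region TTTGAA, which is known from promoters of mitotic genes, was in 2 of 44 (4.5%) against 15.87%. Matches of different octamers were allowed to overlap, base composition was not matched between these sets, and a match is a description of letters, not a measured site.

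The arrays split cleanly by group over all genes. Correlations of log2 signal over 17687 genes, which share platform and probe composition, were 0.96 to 0.97 within the clones, 0.96 to 0.98 within the parental samples and 0.52 to 0.60 between the groups. The study's methods describe the clones as made from A431 cells, no later check of their identity was known here, and a difference that comes from the lines rather than from CD109 cannot be told apart in these samples. CD109 itself, the targeted gene, read 3.64, 3.45 and 3.62 for clones 26, 32 and 180, while parental samples 5, 2 and 6 gave 7.57, 7.75 and 8.13, a difference of -4.25 ± 0.23 on the log2 scale (limma, adjusted p = 1.09e-07). The place of its probes relative to the edited exons was not known here. Signals from genes that neither line should use were higher in the clones: the 95th percentile of 349 olfactory receptor probe sets, taken here as each array's background, was 5.51 to 5.71 in the clones and 4.07 to 4.20 in the parental samples, while the interquartile range of all signals averaged 2.47 and 3.34. Of the A431 identity markers, all 10 measured epithelial markers were called lower in CD109-KO cells, with a mean log2 signal of 5.69 to 5.93 in the clones against 9.73 to 10.13 in the parental samples, and 4 to 5 of the 10 were above background in each clone against all 10 in each parental sample. Of 11 fibroblast markers 9 were called higher, with means of 6.25 to 6.41 against 4.10 to 4.43 and 6 above background in each clone against 4 to 6, while LUM was called lower (-3.04, at background in every clone). Of 5 endothelial markers 3 were called higher, at means of 4.72 to 4.87 against 3.64 to 3.88, with 1 above background in each clone against 2 in each parental sample. Of 4 blood markers 3 were called higher and CD68 lower (-4.16), at means of 5.21 to 5.47 against 5.00 to 5.31, with 0 to 3 above background against 1 to 2. These background, spread and marker values moved with every difference between the groups that follows, and their part in it was not tested.

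Replication genes were mostly lower in CD109-KO cells. In the linear model of limma, with Benjamini-Hochberg adjustment over all gene probe sets, a call needed an adjusted p under 0.01 together with at least a 2-fold difference. By this rule 31 of the 50 were called lower, 1 (POLD1) was called higher and 18 were not called. Over all 17687 genes 26.8% were called lower and 36.2% higher. The median difference, CD109-KO minus parental, was -1.86 on the log2 scale for the 50 genes and 0.51 for all genes, and after centring each array on a list of housekeeping genes these became 0.37 and 2.74, so that the sign of the median depended on the scaling. The median of the 50 lay -2.37 from that of all genes, a distance that no such centring can change, since each adds 1 constant to every difference. The distance does depend on the genes compared. Among genes above background in at least 3 arrays the all-gene median was -0.24 rather than 0.51. The olfactory receptor genes had a median of 0.83, and the 10 measured housekeeping genes had one of -2.37, below that of the 50. Housekeeping centring gave 7 genes lower and 14 higher, and over all genes 1188 lower and 13274 higher. Centring on antigenomic controls gave 41 lower and 0 higher (6795 and 1117 over all genes), and on hybridization controls 38 and 0 (6061 and 1360). Of the 10 measured housekeeping genes 7 were themselves called lower. The methods' t-test, adjusted in the same way, called 7 of the 50 lower and 0 higher, and 3 were lower and 0 higher when values were raised to the highest array background before the fit, a setting chosen after seeing the data. All 3 clones lay below all 3 parental samples for 34 of the 50 genes (31.8% of all genes) and above them for 2, CDT1 and POLD1 (48.9% of all genes). For 28 of the 50 (8221 of all 17687 genes) all 3 clones were at or below their own array background, so these values are upper limits. Of those called lower, 17 have only a bound on the fold, written below as at least N-fold beside the fitted difference, which sets the parental mean against the higher of background and measured signal in each clone. These bounds hold on the deposited scale only. Housekeeping centring adds 2.23 to every difference and put ORC2, written below as at least 2.44-fold lower, at 0.23. In what follows, signals are log2 values in the order clones 26, 32 and 180 against parental samples 5, 2 and 6, and differences are CD109-KO minus parental on that scale ± standard error. Where all clones are at background, a fitted difference rests partly on signal below background and sets no order among genes. Only 4 genes called lower (MCM5, POLD2, RRM1 and RRM2) were measured above background in all 3 clones. Of the 4746 called lower over all genes, 2250 had only a bound and 1303 were above background in all 3 clones.

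**Figure D1:**
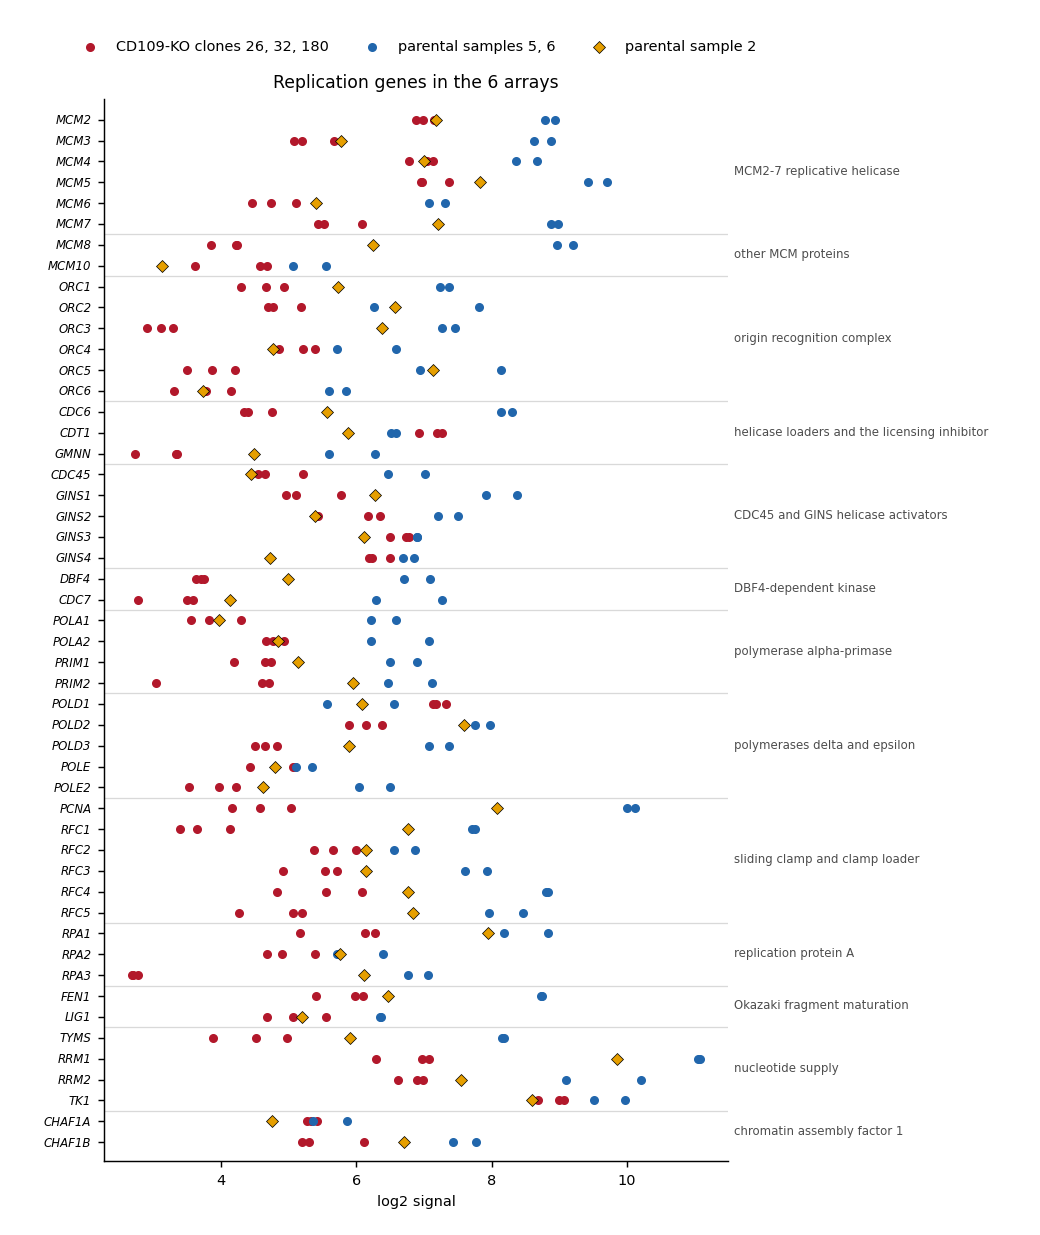
Log2 signal (horizontal axis) of each of the 50 replication genes (rows, grouped by role) in the 3 CD109-KO clones (red), parental samples 5 and 6 (blue) and parental sample 2 (yellow diamond), on the deposited scale. Samples 5 and 6 lay to the right of every clone for 47 genes, against 6101 of all 17687 genes. Sample 2 lay below both of them for 46, against 34.1% of all genes.

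Parental sample 2 stood apart from parental samples 5 and 6 in these genes. It was below both for 46 of 50 (34.1% of all genes), between them for 4 (ORC2, ORC5, POLD1 and RPA2) and above both for 0. Its distance from the mean of samples 5 and 6 had a median of -1.57 (range -2.98 to 0.02) against 0.03 over all genes, and it was at least 2-fold lower for 34 of 50 genes against 5.19% of all genes. Samples 5 and 6 differed from each other by a median of -0.24 (range -1.54 to 0.99), and by less than 2-fold for 47 of 50 (16997 of all 17687 genes). These are single samples, so the distances carry no test, and the labels give no reason for them. Over the array as a whole the correlation of sample 2 with samples 5 and 6 was 0.96 for each, and that of 5 with 6 was 0.98. A correlation and a median distance are different measures and cannot be set against each other. The median SD of the 50 genes was 0.92 over the parental samples (0.30 for all genes) and 0.34 over the clones (0.24 for all genes), and the parental SD was the larger for 46 of 50.

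Without parental sample 2, the same fit called 41 genes lower (27.8% of all genes), 1 higher (37.3% of all genes) and 8 not called, with a median difference of -2.45 against 0.53 over all genes. Since sample 2 was below both other parental samples for 46 of the 50 genes, leaving it out raises the parental mean of those genes. More calls lower follow from this, so the higher count is a description and no separate support. All 31 genes called lower with sample 2 were called lower without it. The 10 added were MCM2, MCM4, ORC6, CDC45, GINS2, POLA1, POLA2, RFC2, RPA2 and LIG1, and the 8 still not called were MCM10, ORC4, CDT1, GINS3, GINS4, POLE, TK1 and CHAF1A. Of the 10 added, all but CDC45 and GINS2 were also called lower with all 6 arrays under at least 1 other alternative. Set against sample 2 alone, the mean of the clones was at least 2-fold lower for 21 of 50 genes (26.2% of all genes, no test) and at least 2-fold higher for 4 (6026 of all 17687 genes), with a median of -0.74 against 0.45 over all genes. Sample 2 lay above all 3 clones for 34 genes, within their range for 6 (MCM4, ORC6, POLA1, POLA2, POLE and LIG1) and below all of them for 10 (MCM10, ORC4, CDT1, CDC45, GINS2, GINS3, GINS4, POLD1, TK1 and CHAF1A). Over all 17687 genes these counts were 6399, 1684 and 9604. All 3 clones were at background for ORC6, POLA1, POLA2 and POLE of the 6, and for MCM10, ORC4, CDC45 and CHAF1A of the 10. For those genes the place of sample 2 among the clones rests on signal at background. It does so in part for LIG1, with 1 clone above background, and for GINS2, with 2.

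**Figure D2:**
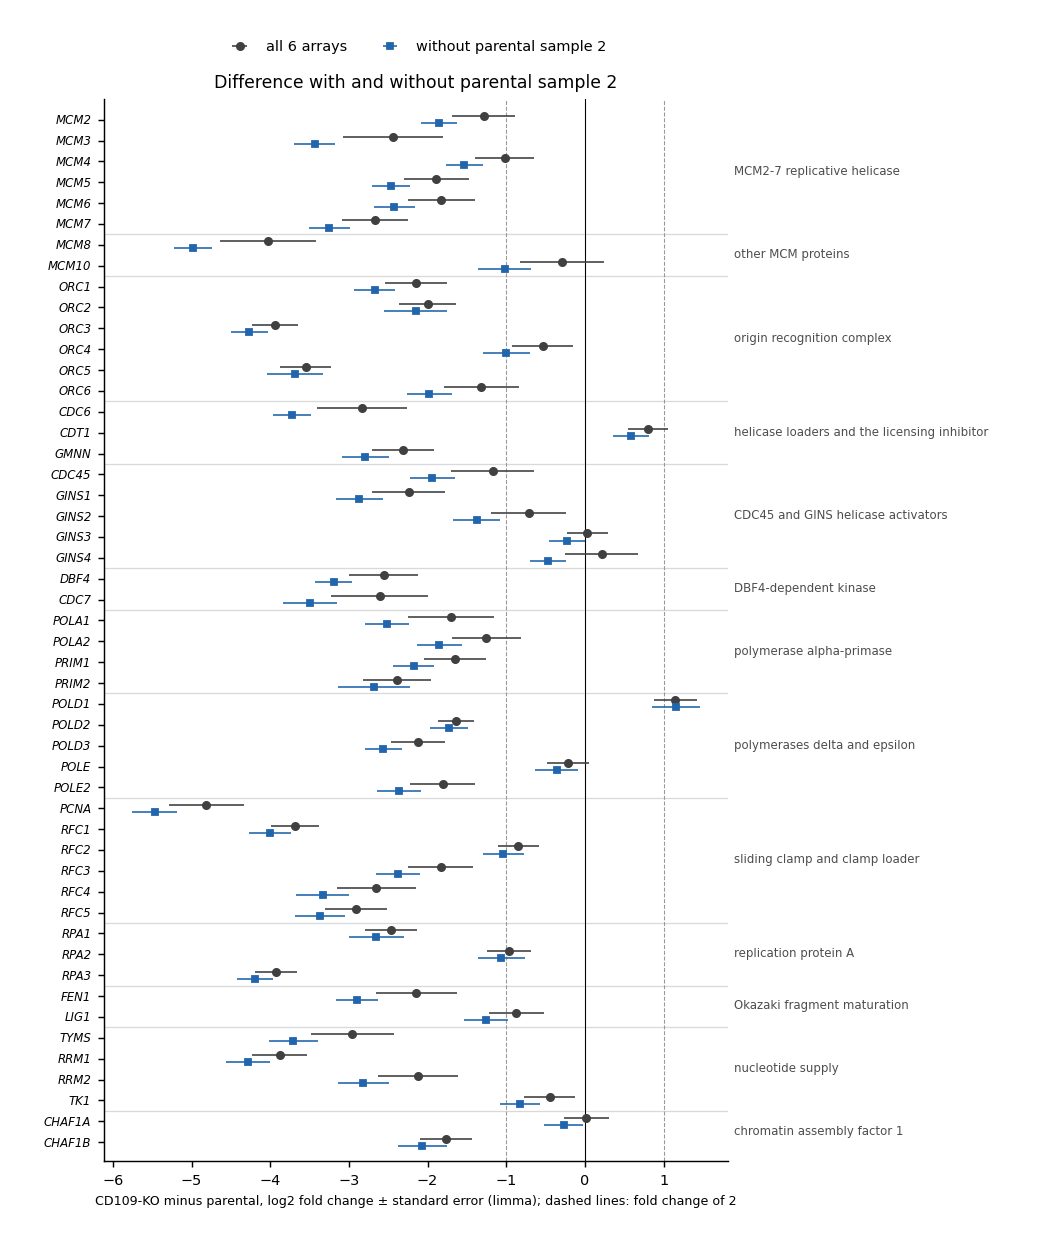
Difference between CD109-KO and parental cells (horizontal axis, log2 fold change ± standard error from limma) for each replication gene, with all 6 arrays (grey circles, n = 3 and 3) and without parental sample 2 (blue squares, n = 3 and 2), on the deposited scale, where centring on housekeeping genes would add 2.23 to each difference. Leaving out sample 2 moved most genes to the left and left POLD1 at 1.16 from 1.15.

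The 6 subunits of the MCM2-7 ring, the motor of the replicative helicase, had a median difference of -1.86 (0.38 after housekeeping centring), with 4 called lower and 6 without sample 2. MCM3 read 5.20, 5.67 and 5.08 in the clones against 8.63, 5.77 and 8.88 in parental samples 5, 2 and 6, a difference of -2.44 ± 0.64 (adjusted p = 0.00453). Its level in sample 2 was next to the highest clone, and its distance from samples 5 and 6, -2.98, was the most negative of the 50 genes. MCM7 read 5.43, 6.08 and 5.52 against 8.97, 7.20 and 8.88, and here sample 2 was clear of every clone (-2.67 ± 0.42, adjusted p = 0.000144). MCM5 was measured above background in all 6 arrays, at 6.98, 7.36 and 6.96 in the clones and 9.42, 7.83 and 9.71 in the parental samples, a difference of -1.89 ± 0.41 (adjusted p = 0.00146). MCM6 differed by -1.83 ± 0.43 and by at least 2.01-fold (adjusted p = 0.00228). MCM2 and MCM4 were not called with all 6 arrays and were called lower without sample 2, and centring on antigenomic or hybridization controls also called both lower with sample 2 kept. MCM2 read 7.15, 6.98 and 6.89 in the clones and 8.78, 7.17 and 8.93 in parental cells, so that sample 2 was level with the highest clone while samples 5 and 6 were well above, and its difference was -1.29 ± 0.40 (adjusted p = 0.0113) with sample 2 and -1.85 ± 0.23 (adjusted p = 4.43e-05) without it. MCM4, at 6.78, 7.04 and 7.14 against 8.36, 6.99 and 8.67, had sample 2 within the range of the clones and moved from -1.02 ± 0.38 (adjusted p = 0.0269) to -1.53 ± 0.24 (adjusted p = 0.000207).

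MCM8 is a helicase paralog that acts in homologous recombination. It read 4.23, 3.85 and 4.22 in the clones, all at background, and 9.20, 6.24 and 8.96 in the parental samples, a difference of -4.03 ± 0.61 (adjusted p = 0.000109) that corresponded to at least 5.83-fold. Sample 2 was -2.84 from samples 5 and 6 and still clear of the clones. MCM10, which binds the helicase as it starts to unwind, was at background in all 3 clones, at 4.67, 3.61 and 4.58, and read 5.07, 3.13 and 5.55 in the parental samples. Sample 2 was the lowest of the 6 arrays for MCM10, and the gene was not called (-0.29 ± 0.53, adjusted p = 0.62).

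The origin recognition complex, the 6-subunit platform that marks origins, had 4 subunits called lower and 5 without sample 2, with a median of -2.07 (0.16 after housekeeping centring). ORC3 read 3.10, 2.90 and 3.29 in the clones against 7.27, 6.38 and 7.46 in parental samples 5, 2 and 6, a difference of -3.94 ± 0.29 and at least 2.73-fold (adjusted p = 7.44e-07). ORC5 read 3.87, 4.20 and 3.49 against 6.94, 7.14 and 8.13, at least 3.53-fold apart (-3.55 ± 0.33, adjusted p = 3.35e-06), and sample 2 lay between samples 5 and 6. The same order of parental samples was seen for ORC2, at 4.76, 4.70 and 5.18 against 6.26, 6.57 and 7.80 (-2.00 ± 0.36, adjusted p = 0.000387, at least 2.44-fold). ORC1, the subunit with cell cycle-dependent levels in human cells, differed by -2.15 ± 0.39 (adjusted p = 0.000409) and by at least 2.28-fold, and was -1.57 from samples 5 and 6 in sample 2. ORC6 was the subunit for which sample 2 was farthest from the other parental samples. It read 5.85, 3.73 and 5.59 in samples 5, 2 and 6, and the clones, at 3.77, 4.15 and 3.30, overlapped with sample 2 (-1.32 ± 0.47, adjusted p = 0.0236, and -1.98 ± 0.28 without sample 2, adjusted p = 0.000117). ORC4 differed by -0.54 ± 0.39 (adjusted p = 0.218), with sample 2 below every clone. All 3 clones were at background for ORC4, while sample 2 was above its own array's background.

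The helicase loaders did not move as a unit. CDC6, an ATPase of the loading step, read 4.75, 4.40 and 4.34 in the clones and 8.14, 5.56 and 8.30 in the parental samples, with no overlap (-2.84 ± 0.57, adjusted p = 0.000855, at least 3.36-fold). CDT1, its partner, read 7.26, 7.19 and 6.93 in the clones and 6.52, 5.87 and 6.58 in the parental samples. Every clone was above every parental sample, but the difference of 0.80 ± 0.25 (adjusted p = 0.0126) missed both thresholds, was 0.58 ± 0.23 (adjusted p = 0.0393) without sample 2, and turned to -0.18 and -0.03 after centring on antigenomic and hybridization controls. Repeated quantile normalization (1.15) and housekeeping centring (3.04) called CDT1 higher. Geminin (GMNN), which binds and inhibits CDT1, read 2.73, 3.35 and 3.34 against 5.59, 4.48 and 6.27 (-2.31 ± 0.39, adjusted p = 0.000258), with all 3 clones at background and no bound above 1-fold. The median of the 3 genes was -2.31, or -0.08 after housekeeping centring.

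The helicase activators had a median of -0.72 on the deposited scale and 1.51 after housekeeping centring, with 1 of 5 called lower, or 3 of 5 without sample 2. GINS1 was the gene called, at 5.78, 4.95 and 5.10 in the clones and 7.91, 6.27 and 8.38 in the parental samples (-2.24 ± 0.46, adjusted p = 0.000943). CDC45 read 5.21, 4.55 and 4.65 against 7.01, 4.44 and 6.47, so that the signal of sample 2 was below every clone and samples 5 and 6 were above them. All 3 clones were at background for CDC45, while sample 2 was above its own array's background, so this order does not show less CDC45 in sample 2. The difference for CDC45 was -1.17 ± 0.53 (adjusted p = 0.0596) with sample 2 and -1.94 ± 0.28 (adjusted p = 0.000136) without it. GINS2 showed the same order of samples, at 5.43, 6.34 and 6.17 against 7.51, 5.38 and 7.21 (-0.72 ± 0.48, adjusted p = 0.186, and -1.38 ± 0.30, adjusted p = 0.00177, without sample 2). Clone 26 was at background for GINS2. GINS4 was the clearest case of a sign set by sample 2: the clones read 6.22, 6.49 and 6.18, samples 5 and 6 were slightly above them and sample 2 was below, at 6.69, 4.72 and 6.85 for 5, 2 and 6, so that the difference was 0.21 ± 0.46 (adjusted p = 0.684) with sample 2 and -0.47 ± 0.23 (adjusted p = 0.0812) without it, and neither was called. GINS3 was above background in all 6 arrays, at 6.78, 6.74 and 6.49 against 6.90, 6.12 and 6.90 (0.03 ± 0.26, adjusted p = 0.923). Both subunits of the DBF4-dependent kinase, which fires the loaded helicase, were called lower with and without sample 2, with a median of -2.59. CDC7, the catalytic subunit, read 3.59, 3.49 and 2.77 in the clones against 6.29, 4.13 and 7.26 (-2.61 ± 0.61, adjusted p = 0.00224). All 3 clones and sample 2 were at background for CDC7, so its fall has no bound. Its regulatory subunit DBF4 read 3.74, 3.71 and 3.63 against 6.70, 4.98 and 7.08 (-2.56 ± 0.44, adjusted p = 0.000264, at least 1.59-fold).

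Polymerase alpha-primase, which starts new strands at the fork, had 2 of 4 subunits called lower and 4 of 4 without sample 2, at a median of -1.68 (0.55 after housekeeping centring). The primase subunits PRIM1 and PRIM2 were called and the polymerase subunits POLA1 and POLA2 were not. PRIM2 read 4.71, 4.61 and 3.04 in clones 26, 32 and 180 and 6.47, 5.95 and 7.12 in the parental samples (-2.39 ± 0.43, adjusted p = 0.000389, at least 1.90-fold), and its range over the clones, 1.66, was the widest of the 50 genes but lay wholly at background. PRIM1 differed by -1.66 ± 0.39 and by at least 1.51-fold (adjusted p = 0.0024). POLA1, the catalytic subunit, read 4.29, 3.55 and 3.82 in the clones, a range that included sample 2 among the parental values of 6.21, 3.96 and 6.59 (-1.70 ± 0.55, adjusted p = 0.0139, and -2.52 ± 0.28, adjusted p = 2.27e-05, without sample 2). POLA2 likewise had sample 2 within the clones, at 6.21, 4.84 and 7.08 in parental cells (-1.25 ± 0.44, adjusted p = 0.0223, and -1.86 ± 0.29, adjusted p = 0.00019, without it).

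The polymerases that extend the strands were split between subunits, with a median of -1.64 (0.59 after housekeeping centring) and 3 called lower, 1 higher and 1 not called. POLD1, the catalytic subunit of polymerase delta, read 7.13, 7.33 and 7.18 in the clones against 6.55, 6.08 and 5.56 in parental samples 5, 2 and 6. It was higher in every clone than in every parental sample, by 1.15 ± 0.27 (adjusted p = 0.00232), and sample 2 was not low for this gene. The difference was no longer called without clone 32 or without parental sample 6, under the methods' t-test, with values raised to the highest background, or after centring on array medians, antigenomic or hybridization controls. Its partners went the other way on the deposited scale: POLD2 read 6.14, 5.89 and 6.38 against 7.75, 7.59 and 7.98 (-1.64 ± 0.23, adjusted p = 6.90e-05, measured above background in all arrays) and POLD3 read 4.50, 4.82 and 4.64 against 7.37, 5.89 and 7.07 (-2.12 ± 0.34, adjusted p = 0.000179, at least 2.28-fold), while housekeeping centring put them at 0.59 and 0.11. For POLD2 sample 2 was -0.27 from samples 5 and 6, less than for most of the 50 genes. POLE2 of polymerase epsilon was called lower (-1.81 ± 0.41, adjusted p = 0.00194, at least 1.09-fold). POLE, its catalytic subunit, was at background in the clones at 5.06, 5.10 and 4.43 against 5.35, 4.79 and 5.10 in the parental samples and was not called (-0.22 ± 0.26, adjusted p = 0.455).

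The sliding clamp and its loader had a median of -2.78 (-0.55 after housekeeping centring), with 5 of 6 called lower and 6 of 6 without sample 2. PCNA is the ring that tethers polymerases to DNA and a common marker of cycling cells. It read 5.03, 4.16 and 4.58 in clones 26, 32 and 180, all at background, against 9.99, 8.08 and 10.12 in parental samples 5, 2 and 6. Sample 2 was -1.98 from the other parental samples, but no clone came near it. The difference was -4.81 ± 0.47 (adjusted p = 5.36e-06) and -5.47 ± 0.28 without sample 2, and on the deposited scale the parental mean was at least 14.0-fold above the clones. Housekeeping centring left PCNA at -2.58. RFC1, the large subunit of the clamp loader, read 4.13, 3.64 and 3.40 against 7.75, 6.76 and 7.70 (-3.68 ± 0.31, adjusted p = 1.77e-06, at least 3.53-fold). RFC5 was at least 4.47-fold lower (-2.91 ± 0.39, adjusted p = 5.17e-05). RFC4 read 4.82, 6.08 and 5.55 in the clones, with only clone 32 above background, and 8.80, 6.77 and 8.83 in the parental samples (-2.65 ± 0.51, adjusted p = 0.000577). RFC3 differed by -1.84 ± 0.41 (adjusted p = 0.00172). RFC2 had the smallest difference of the loader, at 6.00, 5.37 and 5.65 against 6.56, 6.14 and 6.86, and was not called with all 6 arrays (-0.85 ± 0.26, adjusted p = 0.0116). RFC2 was called lower without sample 2 (-1.04 ± 0.26, adjusted p = 0.00404), without clone 26, and after centring on array medians, antigenomic or hybridization controls, and higher (1.38) after housekeeping centring.

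Replication protein A, the trimer that covers single-stranded DNA, had 2 of 3 subunits called lower and 3 of 3 without sample 2, and sample 2 was within 2-fold of the mean of samples 5 and 6 for all 3, at a median distance of -0.56. RPA3 read 2.69, 2.70 and 2.77 in the clones and 6.77, 6.11 and 7.06 in the parental samples (-3.93 ± 0.27, adjusted p = 3.91e-07, at least 2.09-fold), with all 3 clones far below background. RPA1 read 5.16, 6.27 and 6.12, with clone 26 the low one, against 8.18, 7.94 and 8.83 (-2.46 ± 0.33, adjusted p = 4.98e-05). RPA2 was below the parental samples in every clone, at 5.39, 4.90 and 4.67 against 5.71, 5.76 and 6.39. Its difference, -0.97 ± 0.27 (adjusted p = 0.00716), passed on adjusted p but fell short of 2-fold, and was -1.06 ± 0.30 (adjusted p = 0.00766) without sample 2. The median of the trimer was -2.46, or -0.23 after housekeeping centring. Of the lagging strand enzymes, the flap nuclease FEN1 read 5.40, 6.10 and 5.98 in the clones against 8.74, 6.46 and 8.73 in parental samples 5, 2 and 6 (-2.15 ± 0.51, adjusted p = 0.00257, and 0.08 after housekeeping centring), with sample 2 much nearer to the clones than to the other parental samples. The ligase LIG1 read 5.55, 5.06 and 4.67 against 6.34, 5.19 and 6.36, and of the clones only clone 26 was above background. Sample 2 was within the range of the clones for LIG1, and the gene was not called with it (-0.87 ± 0.34, adjusted p = 0.0363) and was called lower without it (-1.26 ± 0.28, adjusted p = 0.00208). Centring on antigenomic or hybridization controls also called LIG1 lower, and housekeeping centring called it higher (1.36).

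Genes of nucleotide supply had 3 of 4 called lower, with and without sample 2, at a median of -2.54 (-0.31 after housekeeping centring). RRM1, the large subunit of ribonucleotide reductase, read 7.07, 6.30 and 6.97 in the clones and 11.05, 9.85 and 11.07 in the parental samples, above background in all 6 arrays (-3.88 ± 0.35, adjusted p = 2.91e-06). RRM1 was the only one of the 31 genes that stayed called lower in each of the 20 alternative analyses run. The small subunit RRM2, whose level follows S phase, read 6.61, 6.90 and 6.98 against 9.09, 7.55 and 10.20, with sample 2 closest to the clones (-2.12 ± 0.51, adjusted p = 0.0026). TYMS, which makes thymidylate, read 4.97, 4.51 and 3.89 against 8.15, 5.91 and 8.18 (-2.96 ± 0.53, adjusted p = 0.000361, at least 3.55-fold). TK1, which salvages thymidine and is also a marker of S phase, differed from the rest of the group. It read 8.68, 9.06 and 8.99 in the clones and 9.97, 8.60 and 9.51 in the parental samples, so that sample 2 was below every clone and samples 5 and 6 were above them, and it was not called (-0.45 ± 0.33, adjusted p = 0.223). In chromatin assembly factor 1, which places histones on new DNA, CHAF1B was called lower (5.29, 6.11 and 5.20 against 7.43, 6.71 and 7.77, -1.77 ± 0.33, adjusted p = 0.000471, and 0.46 after housekeeping centring), and CHAF1A was not, at 5.42, 5.27 and 5.33 against 5.36, 4.75 and 5.87 (0.02 ± 0.28, adjusted p = 0.961).

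Among the clones, values were closer together than among the parental samples. The range over clones was at least 1 log2 unit for 5 genes (MCM10, PRIM2, RFC4, RPA1 and TYMS), and no clone was low throughout: clone 26 was the lowest for 14 genes, clone 32 for 14 and clone 180 for 22, of which many lay at background. The number of the 50 genes above the array's own background was 15, 19 and 14 in clones 26, 32 and 180, against 50, 46 and 50 in parental samples 5, 2 and 6. Over all 17687 genes it was 8545, 8691 and 7841 against 12297, 12106 and 12244.

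**Figure D3:**
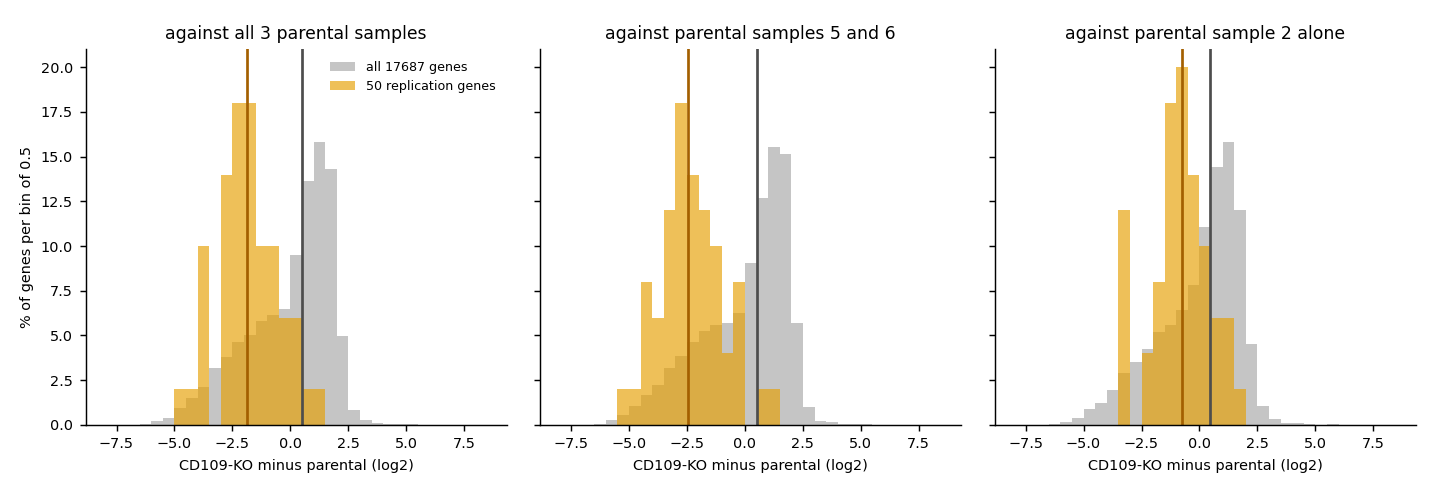
Percent of genes (vertical axis) by difference between CD109-KO and parental cells (horizontal axis, log2, bins of 0.5), for all 17687 genes (grey) and the 50 replication genes (yellow), against all 3 parental samples, against samples 5 and 6 and against sample 2 alone, with vertical lines at the medians. On the deposited scale the replication genes' median was -1.86, -2.45 and -0.74 in the 3 panels against 0.51, 0.53 and 0.45 for all genes, and centring on housekeeping genes would turn the first to 0.37.

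Genes of the same pathways outside the 50 were counted from lists drawn up by function. Of 33 measured genes of the fork and of origin firing, 13 were called lower and 4 higher (18 and 3 without sample 2), with a median of -0.89 (1.34 after housekeeping centring). TOPBP1, which links kinase signals to helicase activation, read 3.60, 4.30 and 3.65 against 7.50, 5.99 and 7.36 (-3.10 ± 0.38, adjusted p = 2.48e-05, at least 2.58-fold). RNASEH2B, a subunit of the ribonuclease that removes ribonucleotides from DNA, differed by -2.97 with no bound above 1-fold, and RIF1, which times origin firing, by -2.85 and at least 2.77-fold, both at background in every clone. The genes called higher were CHTF18, of an alternative clamp loader (1.48), the maintenance methyltransferase DNMT1 (1.27), RNASEH2C (1.25) and RECQL4 (1.21, which was named after its value was seen). Clone 180 was at background for DNMT1, at 5.64. Mean background was itself 5.59 in the clones against 4.14 in the parental samples, and its part in these rises was not tested. Of 15 other nucleotide genes 10 were called lower and 0 higher, with and without sample 2. SAMHD1, which breaks down deoxynucleotides, read 2.32, 2.61 and 2.57 against 7.75, 6.55 and 8.36 (-5.05 ± 0.38, adjusted p = 8.26e-07, at least 3.91-fold). The purine synthesis genes ATIC (-3.67, at least 3.85-fold) and GART (-3.53, at least 3.17-fold) were also at background in every clone.

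Of 18 E2F, RB family and partner genes, 9 were called lower and 0 higher, with a median of -1.00 (1.23 after housekeeping centring). E2F8, a repressor that is itself an E2F target, read 3.61, 3.42 and 2.71 against 8.35, 6.87 and 8.59 (-4.69 ± 0.42, adjusted p = 2.63e-06, at least 5.09-fold). The RB family genes RBL2 (-4.60, at least 5.41-fold) and RBL1 (-4.11, at least 3.11-fold) were called lower too, and all 3 genes were at background in every clone. Of 10 cyclins, kinases and regulators of S phase entry, 7 were called lower and 0 higher, with and without sample 2. Among them CCNA2 (-3.48, at least 8.14-fold), SKP2 (-3.35, at least 5.83-fold) and FBXO5 (-3.53, with no bound since sample 2 was also at background) were at background in every clone. Mitotic genes, taken for comparison, had 24 of 30 called lower (27 without sample 2), at a median of -3.27, or -1.04 after housekeeping centring.

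The low values of sample 2 extended to these lists. Its median distance from the mean of samples 5 and 6 was -1.02 for the other fork genes (below both for 32 of 33), -0.74 for the nucleotide genes, -0.82 for the E2F and RB genes, -1.08 for the S phase entry genes and -1.64 for the mitotic genes (below both for 30 of 30). The epithelial markers, at a median of 0.30, and the fibroblast markers, at 0.39, were not low in sample 2 as lists, but EPCAM was, at -1.09. CDKN1A, the inhibitor p21 that is a target of p53, was the one gene of S phase entry at least 2-fold higher in sample 2, and was singled out after its values were seen. It read 7.72, 9.21 and 8.25 in samples 5, 2 and 6 and 5.32, 5.10 and 5.63 in the clones, so that sample 2 was the highest of the 6 arrays for CDKN1A and the clones were below all 3 parental samples.

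**Figure D4:**
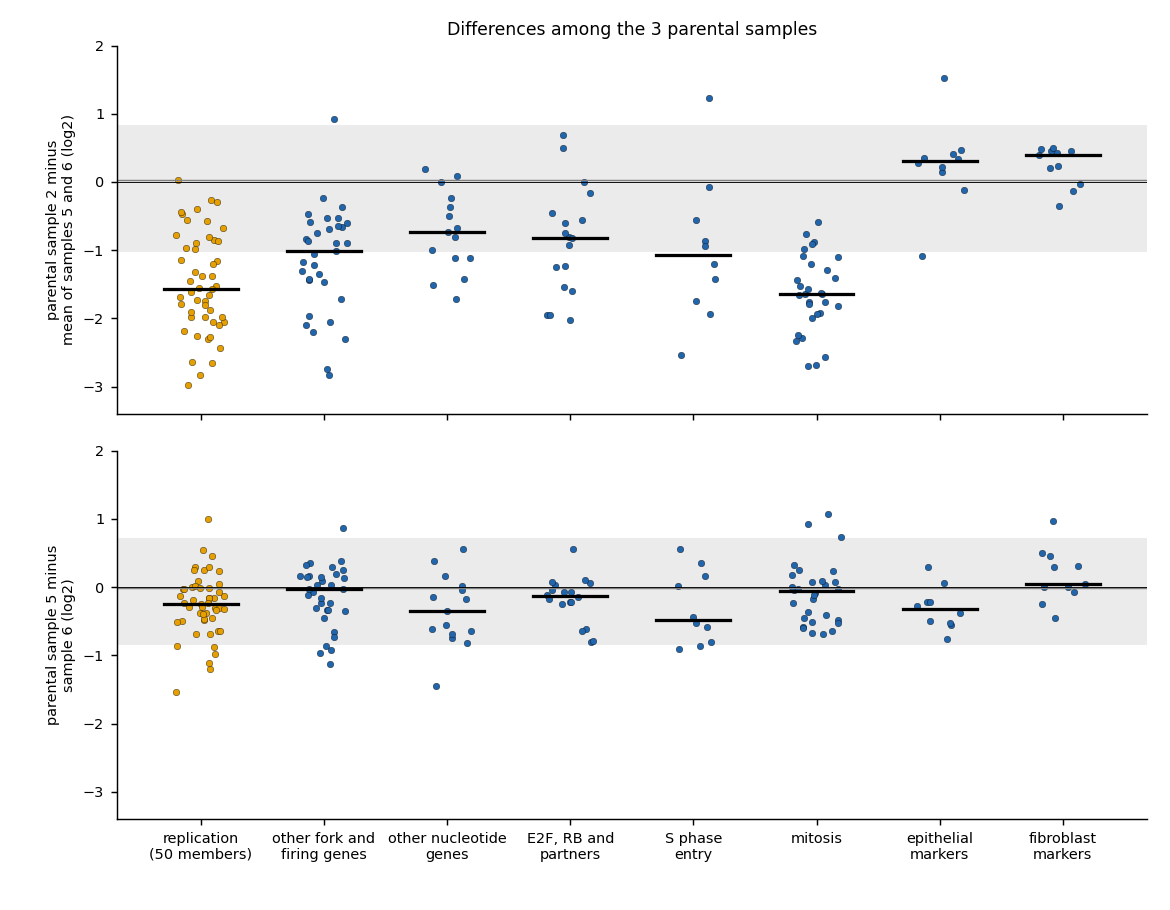
Differences among the 3 parental samples (vertical axis, log2) for genes of each list (columns, 1 point a gene, bars at the medians): sample 2 minus the mean of samples 5 and 6 in the upper panel, and sample 5 minus sample 6 in the lower. Grey bands span the 5th to 95th percentile of all genes. The replication genes had medians of -1.57 and -0.24, the mitotic genes -1.64 and -0.06, and the epithelial markers 0.30 and -0.33.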

How the data were processed

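Clariom S human arrays were hybridized with total RNA, 1 array for each of 6 samples. The deposited values are log2 signals per probe set that the authors had background-corrected and normalized in the Affymetrix Gene Expression Console before analysis in Transcriptome Analysis Console. The summarization and normalization algorithms are not given in the sources used here, and the precision is limited by 6 arrays. From the deposited log2 values, those of 21448 gene probe sets, without 2903 controls, were fitted with limma 3.58.1 in R 4.3.3 (lmFit, eBayes, 2 groups, no covariate), with Benjamini-Hochberg adjustment over all of them. A call needed an adjusted p under 0.01 and a fold change of at least 2, the thresholds of the study's methods. The study's own list was much shorter and held more genes lower than higher. The fit here called 6410 genes higher and 4746 lower, and the reason for the difference was not tested. GEO's platform annotation gave 17709 probe sets 1 symbol, 0 several and 3739 none. These held 17687 genes, and a gene with several probe sets was represented by the one with the highest mean. All 50 symbols were checked against RefSeq (GRCh38.p14) by gene identifier. Background was the 95th percentile of 349 olfactory receptor probe sets per array, and since it compares different probes it is approximate. The 50 genes and all lists were chosen with earlier results of these data known. Genes outside the 50 were named as up to 3 largest rises and falls called per list, and full statistics were given by role group, size, and dependence on parental sample 2. The script was tested on simulated data. Alternatives changed the prior, test, normalization, centring, filter, thresholds and samples.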

Additional observations from a re-analysis of the deposited data

How the results depend on the processing

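Across the alternatives, the count of replication genes called lower, 31, became 7 under the methods' t-test after Benjamini-Hochberg adjustment (ORC3, ORC5, POLD2, PCNA, RFC1, RPA3 and RRM1, and 10 at unadjusted p), 7 after centring on housekeeping genes, and 3 (POLD2, RPA1 and RRM1) with values raised to the highest array background, 5.71, a setting chosen after seeing the data. It was 30 to 41 under the other settings that kept all 6 arrays, of which the filter on dim probe sets left 46 genes to test, and 23 to 41 with 1 array left out (23 without parental sample 5, 24 without 6, 41 without 2). The count called higher, 1, was 2 after repeated quantile normalization, 14 after housekeeping centring, and 0 under the methods' t-test, under centring on antigenomic controls, hybridization controls and array medians, and with raised values, and it was 0 to 1 with 1 array left out. Under the t-test 0 were called higher at unadjusted p as well. The cause of the t-test's lower count was not tested.

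The centrings shifted every difference by 2.23 (housekeeping), -0.98 (antigenomic), -0.84 (hybridization) and -0.19 (array medians), and moved the all-gene median to 2.74, -0.47, -0.33 and 0.31. Housekeeping centring thereby turned 26 genes: MCM2 0.94, MCM4 1.21, MCM5 0.34, MCM6 0.41, MCM10 1.94, ORC1 0.082, ORC2 0.23, ORC4 1.69, ORC6 0.92, CDC45 1.06, GINS2 1.51, POLA1 0.53, POLA2 0.98, PRIM1 0.58, POLD2 0.59, POLD3 0.11, POLE 2.02, POLE2 0.42, RFC2 1.38, RFC3 0.40, RPA2 1.26, FEN1 0.085, LIG1 1.36, RRM2 0.11, TK1 1.79 and CHAF1B 0.46. Antigenomic and hybridization centring turned CDT1 to -0.18 and -0.034, GINS3 to -0.95 and -0.81, GINS4 to -0.77 and -0.63, and CHAF1A to -0.96 and -0.82, and array medians turned GINS3 to -0.16 and CHAF1A to -0.18. Repeated quantile normalization turned TK1 to 0.60 and CHAF1A to -0.15, and raised values turned GINS4 to -0.12 and CHAF1A to -0.051. With 1 array left out, reversals were MCM10 (range -1.02 to 0.19), GINS3 (-0.23 to 0.16), GINS4 (-0.47 to 0.59) and CHAF1A (-0.27 to 0.29), none of these called with all arrays, and for GINS4 only without parental sample 2. No paired analysis was possible because the clone numbers and the parental numbers share none.

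Depth on an array shows as signal over background. In the clones 28 of the 50 genes (8221 of all 17687 genes) were at background on all 3 arrays, where the size of a fall cannot be read beyond its bound. That bound itself holds on the deposited scale only.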
